A study of Mus musculus with 6 samples.

Results

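The genes described here are 36 genes of the unfolded protein response of the endoplasmic reticulum (ER) and of the integrated stress response, taken by symbol from a liver RNA sequencing table of 24034 genes. All 36 were found in the table. By role they fall into 4 sensors and signal carriers, 24 genes for proteins that work at or in the ER (14 chaperones and folding enzymes, 7 of ER-associated degradation and 3 of translocation into the ER), and 8 genes of the branch led by the transcription factor ATF4. The tested livers (HO, 3 libraries) came from C57BL/6 mice of 25 weeks with the genotype label lncenc13A/3A, which the study's design text calls knockout of lncenc1, a gene for a long non-coding RNA. The other livers (WT, 3 libraries) came from C57BL/6 mice of the same age labelled lncenc1wt/wt. The sources used here do not say what the 3A allele changes in the gene, which substrain was used or at what hour livers were taken. The question asked here was whether chaperone and degradation genes of the XBP1 and ATF6 type differed between HO and WT liver in the same way as the ATF4 branch.

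The unfolded protein response adjusts the folding capacity of the ER to its load, which is high in hepatocytes because they secrete most plasma proteins. The sensor IRE1 (Ern1) cuts a short intron out of Xbp1 mRNA so that an active transcription factor is made, and ATF6 is cut in the Golgi to release another; both raise chaperone and degradation genes through ER stress response elements. The sensor PERK (Eif2ak3) is one of several kinases that phosphorylate the initiation factor eIF2, which lowers translation in general and raises that of ATF4, whose targets carry C/EBP-ATF response elements.

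The sequences through which these branches act are shown first, because the 2 branches are known to act through different ones. In the mouse genome (mm10, GRCm38) the Xbp1 intron removed by IRE1 lies in the fourth exon, inside the coding sequence, at chr11:5524282-5524307 on the plus strand. It is 26 bases long and is printed in capitals with 20 flanking bases on each side.
Xbp1, chr11:5524262-5524327, plus strand: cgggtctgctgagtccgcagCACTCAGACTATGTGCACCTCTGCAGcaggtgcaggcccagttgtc
The table holds 1 FPKM value for the whole gene, so spliced and unspliced Xbp1 mRNA were not separated here.

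Promoter windows from 250 bases before to 50 bases after the RefSeq start (GRCm38.p6) were searched on both strands for 4 motifs. These were the ER stress response element (ERSE, CCAAT and CCACG with any 9 bases between), its short form ERSE-II (ATTGG and CCACG with any 1 base between), the unfolded protein response element (UPRE, TGACGTGG) and the C/EBP-ATF response element (CARE, TGATGNAA). A window was found for 31 of the 36 genes, and for Manf, Hyou1, Derl1, Atf6 and Sec61a1 none was used here. The ERSE sites follow, read in the motif's own direction, with the motif in capitals and 5 bases on each side.
Hspa5, chr2:34772020-34772048, plus strand: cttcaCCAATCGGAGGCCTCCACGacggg
Hsp90b1, nearer site, chr10:86705528-86705556, plus strand: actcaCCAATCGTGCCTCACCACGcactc
Hsp90b1, farther site, chr10:86705633-86705661, minus strand: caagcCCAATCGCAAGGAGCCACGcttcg
Dnajc3, chr14:118937822-118937850, plus strand: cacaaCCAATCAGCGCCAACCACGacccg
Pdia6, chr12:17266486-17266514, plus strand: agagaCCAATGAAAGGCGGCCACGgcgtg
Calr, chr8:84847070-84847098, plus strand: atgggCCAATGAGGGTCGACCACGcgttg
Canx, chr11:50325795-50325823, minus strand: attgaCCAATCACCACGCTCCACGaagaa
Creld2, chr15:88819515-88819543, minus strand: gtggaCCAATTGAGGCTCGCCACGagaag
Syvn1, chr19:6046527-6046555, plus strand: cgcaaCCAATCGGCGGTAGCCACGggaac
Derl3, chr10:75893237-75893265, minus strand: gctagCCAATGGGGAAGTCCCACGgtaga
ERSE-II matched in Dnajb11 and Herpud1.
Dnajb11, chr16:22857847-22857867, plus strand: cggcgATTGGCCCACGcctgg
Herpud1, chr8:94386372-94386392, plus strand: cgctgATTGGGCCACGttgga
CARE matched in 4 genes of the ATF4 branch and in Herpud1.
Atf3, chr1:191183431-191183448, plus strand: cttggTGATGCAAgtgcg
Chac1, chr2:119351044-119351061, minus strand: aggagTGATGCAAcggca
Trib3, chr2:152344034-152344051, plus strand: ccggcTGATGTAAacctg
Asns, chr6:7693220-7693237, minus strand: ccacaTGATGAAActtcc
Herpud1, chr8:94386312-94386329, minus strand: cgggcTGATGCAAcccgc
Chac1 had the smallest p of the 36 genes in the comparison below, and the 250 bases before its start are given in full, with the CARE (here on the other strand, so written as its reverse complement) in capitals.
Chac1, chr2:119350992-119351241, plus strand: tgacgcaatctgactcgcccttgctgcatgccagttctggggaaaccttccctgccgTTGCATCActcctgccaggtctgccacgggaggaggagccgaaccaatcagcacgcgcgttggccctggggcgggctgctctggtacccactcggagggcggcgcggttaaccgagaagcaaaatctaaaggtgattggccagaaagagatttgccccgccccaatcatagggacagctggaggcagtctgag

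ERSE was present in 9 of 20 ER genes with a window (45.0%), in 0 of 8 genes of the ATF4 branch and in 37 of all 27025 genes with a window (0.137%). ERSE-II was present in 2 of the 20 ER genes and in 12 of all genes (0.0444%). CARE was present in 4 of the 8 genes of the ATF4 branch, in 1 of the 20 ER genes and in 1219 of all genes (4.51%). UPRE was in none of the 31 windows and in 0.714% of all. No match overlapped another, and absence of these letters from a window says nothing about the factors themselves. Genes of these branches are already known to carry such elements, so the shares describe the lists and are no result of these data.

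**Figure D1:**
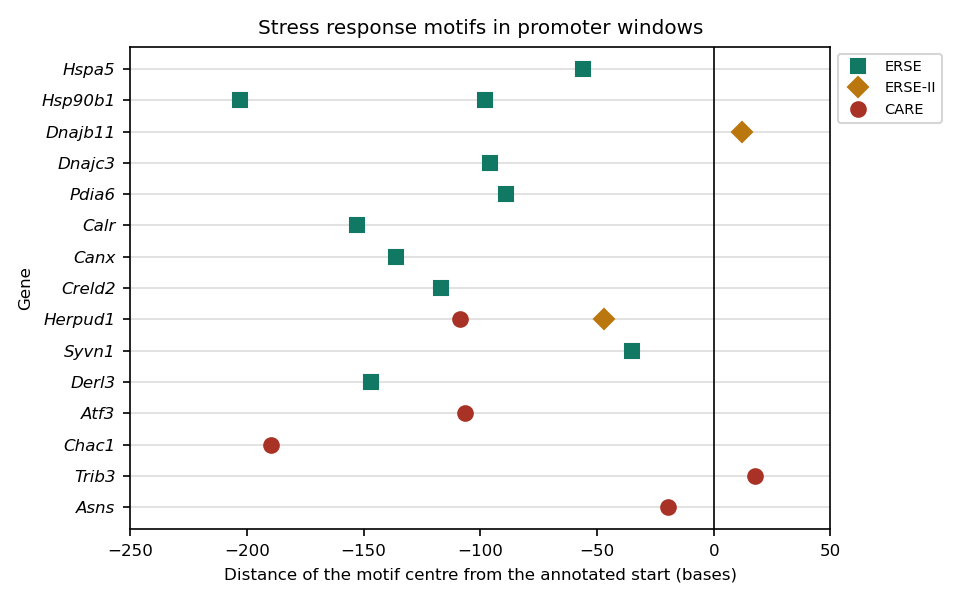
Positions of stress response motifs in the promoter windows of the 15 genes that held one. The horizontal axis is the distance of the motif's centre from the annotated start in bases, and each symbol is 1 match (square, ERSE; diamond, ERSE-II; circle, CARE); ERSE squares lie in ER genes and all but 1 of the CARE circles in genes of the ATF4 branch.

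Expression was given as FPKM, a fragment number scaled by gene length and by library size, so levels can be set side by side between genes. Summed FPKM was 495570 to 518218 over the 6 libraries, and relative depth, read from the spacing of low values, was 19900000 to 24600000 read equivalents in HO and 19100000 to 23500000 in WT. The middle of the distribution was lower in HO, with a median FPKM of 0.742 to 0.788 in HO and 0.853 to 0.879 in WT. HO replicate 1 stood apart in acute phase genes and in the mean of immediate early genes, and WT replicate 3 in clock genes. Values with single libraries left out are given below for several of the 36 genes. Whether the 3 libraries of a group stand for 3 animals is not stated in the labels, so the p-values describe only the spread among these libraries, which may be technical. Lncenc1 itself was not analysed here and the genotypes rest on the labels. The defining hepatocyte markers were abundant in every library, with Alb at 25339 to 29603 FPKM in HO and 31203 to 33315 FPKM in WT. The 8 hepatocyte markers summed to 46202 to 49752 FPKM in HO and 50615 to 53853 FPKM in WT, with 5 positive and 3 negative log2 changes. Cps1 of the urea cycle passed as higher in HO (log2 change 0.86 ± 0.13, limma adjusted p = 0.0422, and past the threshold in 9 of 16 alternatives), while Ttr (-0.54 ± 0.11, limma adjusted p = 0.0737) and Alb (-0.21 ± 0.13) were below WT in all 3 HO libraries and did not pass.

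None of the 36 genes passed the test at an adjusted p of 0.05 (limma on log2(FPKM + 0.5), Benjamini-Hochberg over 13250 genes). All 36 had been kept by the filter on low values. Of all genes tested 1.14% passed, 0.325% as higher and 0.815% as lower in HO. At an unadjusted p under 0.05, 5 of the 36 were higher in HO (Xbp1, Dnajc3, Pdia6, Derl3 and Chac1), against a background of 5.01% of all genes, and 3 were lower (Atf4, Atf5 and Ddit3), against 16.5%, so the share of lower genes was below the background. The 3 HO values lay above all 3 WT values for 4 genes (Xbp1, Pdia3, Pdia6 and Chac1) against 6.42% of all genes, and below all of them for 2 (Atf4 and Ddit3) against 21.4%. For the other 30 genes the groups overlapped, while 27.9% of all genes had no overlap in either direction. The log2 change from WT to HO was positive for 27 genes and negative for 9, with a median of 0.18, whereas 35.4% of all genes tested had a positive change and the median of all was -0.09. Median-of-ratios scaling moved that median to 0.01, and it called Chac1. With array weights Chac1 and Xbp1 passed, and without WT replicate 3 Xbp1 and Derl3 passed. The number of genes at an unadjusted p under 0.05 and higher in HO was 14 when HO replicate 1 was left out, 11 when WT replicate 3 was, and 2 on omitting any one of HO replicate 2, WT replicate 1 and WT replicate 2. The matching shares of all genes are not given here, so the change in number may not be particular to the 36. Of the 36 log2 changes, 29 were larger in value when HO replicate 1 was omitted and 34 smaller when HO replicate 2 was, and 29 were larger when WT replicate 3 was omitted and 30 smaller when WT replicate 1 was.

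**Figure D2:**
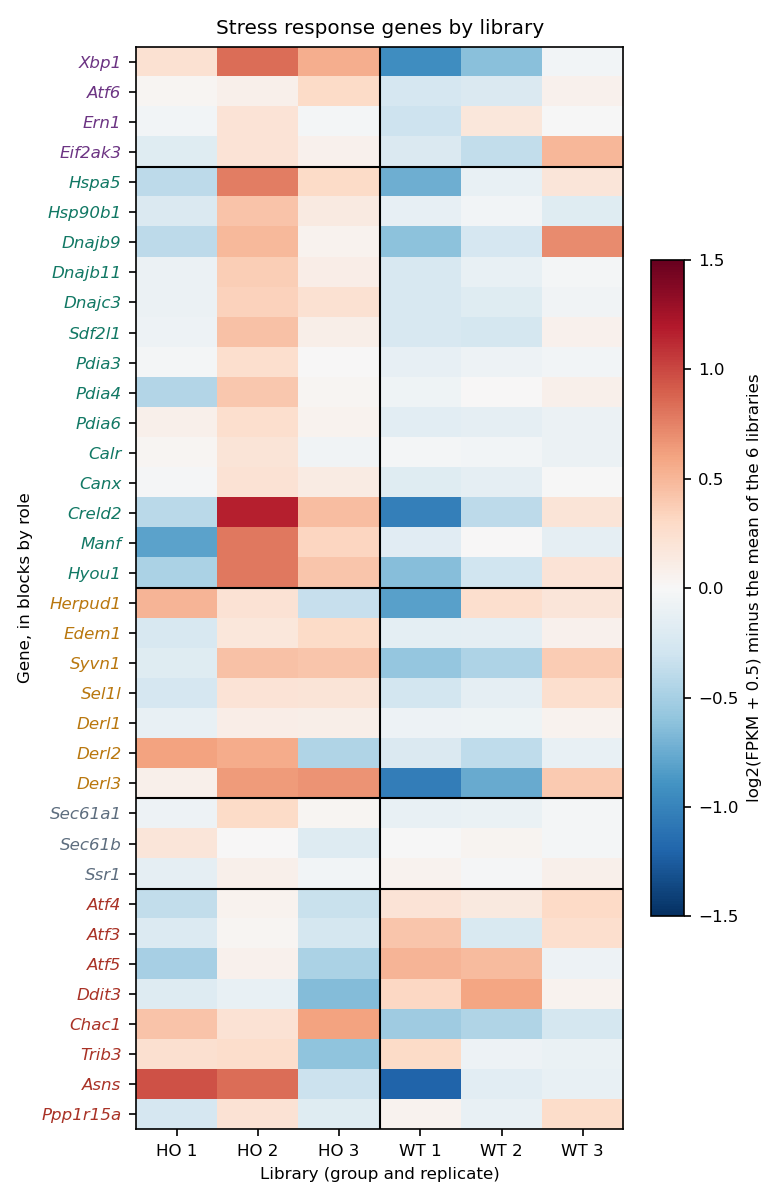
Level of each of the 36 genes in each library, as log2(FPKM + 0.5) minus the gene's mean over the 6 libraries (red, above the mean; blue, below). Columns are the 3 HO and then the 3 WT libraries, rows are genes in blocks by role, and the ER block was reddest in HO replicate 2 and bluest in WT replicate 1.

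Of the sensors and signal carriers, Xbp1, which encodes the transcription factor made after IRE1 cleavage, differed most in mean between HO and WT. Xbp1 (ENSMUSG00000020484.18, chromosome 11, 5520659 to 5525893, plus strand) was at 164, 251 and 204 FPKM in the HO livers and at 73.4, 90.7 and 136 FPKM in the WT livers. The lowest HO library was above the highest WT library, and WT replicate 3 was the WT library nearest to HO. The ratio of means was 2.06 and the log2 change 1.07 ± 0.25 (SE, n = 3 each), which did not pass (limma adjusted p = 0.0811). Over the 16 alternatives the change ran from 0.87 to 1.31 and the limma adjusted p from 0.0335 to 0.242.

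Of the genes for the sensor proteins themselves, Ern1 and Eif2ak3 had log2 changes within 1 SE of 0, and Atf6 a positive one of about 2 SE that did not pass. Atf6, encoding the membrane-bound transcription factor, was at 12.4, 12.9 and 14.9 FPKM in HO and at 10.1, 10.4 and 12.7 FPKM in WT. Its groups overlapped, and the log2 change was 0.27 ± 0.13 (limma adjusted p = 0.273). Ern1, encoding IRE1, was at 12.5, 14.9 and 12.6 FPKM in HO and at 10.3, 14.5 and 12.9 FPKM in WT, a log2 change of 0.09 ± 0.14. Eif2ak3, encoding PERK, was at 4.07, 5.48 and 4.91 FPKM in HO and at 3.98, 3.53 and 6.83 FPKM in WT, a log2 change of 0.05 ± 0.24. For both, a WT library lay inside or above the HO range. The directions of Ern1 and Eif2ak3 turned when single libraries were left out.

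Among ER chaperones and folding enzymes, 13 of 14 had a positive log2 change, with a median of 0.24. At an unadjusted p under 0.05, 2 (Dnajc3 and Pdia6) were higher and 0 lower. Of all genes tested 35.4% had a positive change, 5.01% were higher at that threshold and 16.5% lower. Hspa5, the ER Hsp70 known as BiP (chromosome 2, 34771970 to 34777547, plus strand), was at 300.2, 669 and 479 FPKM in HO and at 237, 366 and 448 FPKM in WT. HO replicate 1 lay below 2 of the WT libraries, and the log2 change of 0.44 ± 0.33 did not pass (limma adjusted p = 0.485). With HO replicate 1 left out it was 0.74, with HO replicate 2 left out 0.16, with WT replicate 1 left out 0.18 and with WT replicate 3 left out 0.64. Hsp90b1, the ER Hsp90 (chromosome 10, 86690209 to 86705509, minus strand), was at 319, 498 and 407 FPKM in HO and at 341, 361 and 328 FPKM in WT, with the WT libraries inside the HO range. Its log2 change was 0.23 ± 0.16 (limma adjusted p = 0.454). It overlaps 1810014B01Rik on the opposite strand, at a mean of 39.2 FPKM, and Gm15344 on its own strand, at 4.02 FPKM. The sources used here do not say if counting used the strand, so the value of Hsp90b1 is uncertain. Of the 36 genes, 13 overlap another annotated gene.

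The DNAJ proteins are cochaperones that bring clients to BiP or stimulate its ATPase. Dnajc3, also an inhibitor of eIF2 kinases (chromosome 14, 118937976 to 118981697, plus strand), was at 58.5, 79.3 and 73.4 FPKM in HO and at 52.7, 55.0 and 60.0 FPKM in WT. HO replicate 1 lay within the WT range and the other HO libraries above it, and the log2 change was 0.32 ± 0.13 (limma adjusted p = 0.208). Dnajb11 had means of 74.8 ± 12.1 FPKM in HO and 62.5 ± 4.62 FPKM in WT (SD, n = 3), and Sdf2l1, which forms complexes with it, had 59.5 ± 11.2 FPKM in HO and 48.1 ± 6.34 FPKM in WT. Dnajb9, a classical XBP1 target that feeds back on IRE1, had 34.9 ± 10.7 FPKM in HO and 34.1 ± 17.4 FPKM in WT, with its highest value of 53.8 FPKM in WT replicate 3. The ratio of means of Dnajb9 was 1.02 and its log2 change 0.10 ± 0.36. That change was -0.18 without WT replicate 1 and 0.49 without WT replicate 3, so it is imprecise.

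The disulphide isomerases form and reshuffle disulphide bonds in secreted proteins. Pdia6 (chromosome 12, 17266545 to 17284770, plus strand) was at 155, 174 and 153 FPKM in HO and at 131, 134 and 138 FPKM in WT. The groups did not overlap, the log2 change was 0.25 ± 0.08 (limma adjusted p = 0.154), and its within-group SD of 0.08 on the log2 scale was the smallest among the ER genes. Pdia3, which works with the lectin chaperones, was at 185, 225 and 190.5 FPKM in HO and at 174, 180.1 and 184 FPKM in WT, again without overlap and with a log2 change of 0.15 ± 0.10. Pdia4 was at 125.9 ± 36.1 FPKM in HO and 123 ± 6.03 FPKM in WT, and its log2 change of -0.01 turned to 0.11 with median-of-ratios scaling. The lectin chaperones Calr and Canx, which hold glycoproteins during folding, had log2 changes of 0.11 ± 0.09 and 0.22 ± 0.10. The 2 were abundant, with Calr at 438 to 519.9 FPKM in HO and 428 to 445 FPKM in WT.

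Creld2, Manf and Hyou1, all known to be induced by ER stress, varied widely between libraries of a group. Creld2 (chromosome 15, 88819646 to 88826683, plus strand) was at 37.3, 112 and 68.2 FPKM in HO and at 24.1, 37.5 and 56.9 FPKM in WT. Its ratio of means was 1.84, but HO replicate 1 lay below WT replicates 2 and 3, and the log2 change of 0.82 ± 0.44 did not pass (limma adjusted p = 0.329). Leaving out HO replicate 1 gave 1.22 and leaving out HO replicate 2 gave 0.44, and omission of WT replicate 1 gave 0.51 and of WT replicate 3 gave 1.12. Manf was at 57.2, 174 and 125 FPKM in HO and at 89.6, 101 and 91.1 FPKM in WT, so HO held both its lowest and its highest value. Manf overlaps Rbm15b on its own strand and Dcaf1 on the opposite strand, at means of 2.64 and 5.31 FPKM, so its value is uncertain. Hyou1, an ER nucleotide exchange factor of the Hsp70 family, was at 39.0, 94.1 and 72.6 FPKM in HO and at 34.8, 44.1 and 62.8 FPKM in WT. Its log2 change of 0.48 ± 0.34 was 0.84 when HO replicate 1 was omitted, 0.21 when HO replicate 2 was and 0.29 when WT replicate 1 was, and that of Manf, 0.20 ± 0.36, was 0.65 and -0.15 without HO replicates 1 and 2. Creld2, Manf, Hyou1 and Hspa5 shared an order of libraries in HO, with replicate 1 lowest and replicate 2 highest.

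All 7 genes of ER-associated degradation, which returns misfolded proteins to the cytosol for the proteasome, had positive log2 changes, with a median of 0.25. Only 1 (Derl3) was higher at an unadjusted p under 0.05, and 0 were lower. Of all genes tested 35.4% had a positive change, and 5.01% were higher and 16.5% lower at that threshold. Derl3, a derlin of the retrotranslocation machinery best known from secretory cells (chromosome 10, 75893413 to 75895941, plus strand), was at 4.65, 7.11 and 7.29 FPKM in HO and at 1.88, 2.39 and 5.93 FPKM in WT. WT replicate 3 lay inside the HO range and the other WT libraries below it. The log2 change was 0.93 ± 0.37 (limma adjusted p = 0.211), and it was 1.36 without WT replicate 3 (limma adjusted p = 0.0449). Derl1 and Derl2, its more widely expressed relatives, had changes of 0.06 ± 0.09 and 0.47 ± 0.28, and Derl2 was at 54.4, 52.7 and 25.8 FPKM in HO and 30.6, 27.3 and 32.9 FPKM in WT. Derl2 overlaps Mis12 on the opposite strand, at a mean of 7.29 FPKM, so its value is uncertain.

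Herpud1, a ubiquitin-like protein that scaffolds the degradation complex, was the gene of this group with the highest level. Herpud1 (chromosome 8, 94386438 to 94395377, plus strand) was at 320.1, 261 and 178 FPKM in HO and at 128, 268 and 255 FPKM in WT. Its order of libraries was unlike that of the chaperones, since HO replicate 1 was highest, and its log2 change was 0.25 ± 0.33 (limma adjusted p = 0.697). The ubiquitin ligase gene Syvn1 was at 40.0, 61.8 and 60.8 FPKM in HO and at 30.3, 33.0 and 59.4 FPKM in WT, a log2 change of 0.44 ± 0.28, which was 0.74 when WT replicate 3 was omitted and 0.26 when WT replicate 1 was. It overlaps Mrpl49 on the opposite strand, at a mean of 17.1 FPKM, so its value is uncertain too. Its partner Sel1l and the mannosidase-like Edem1 had changes of 0.10 ± 0.18 and 0.14 ± 0.15.

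The 3 genes of translocation lay near WT, with a median log2 change of -0.01. Sec61a1, the pore of the translocon, was at 57.7 ± 7.78 FPKM in HO and 51.5 ± 1.56 FPKM in WT (SD, n = 3), a log2 change of 0.15 ± 0.11. Sec61b, another subunit, was at 72.3 ± 9.58 FPKM in HO and 72.3 ± 1.84 FPKM in WT, and Ssr1, of the translocon-associated protein complex, at 12.7 ± 0.965 FPKM in HO and 13.4 ± 0.442 FPKM in WT. Their changes of -0.01 and -0.08 became 0.11 and 0.03 with median-of-ratios scaling.

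In the ATF4 branch, 6 of 8 genes had negative log2 changes and 2 positive ones, against 64.6% negative among all genes tested, so this count is near the background. Of the 8, 3 were lower and 1 was higher at an unadjusted p under 0.05, against 16.5% and 5.01% of all genes. With so few genes these counts are no result about the branch. The 4 transcription factor genes were all negative. Atf4 itself (chromosome 15, 80255184 to 80257541, plus strand) was at 30.2, 40.8 and 31.1 FPKM in HO and at 45.3, 43.7 and 48.3 FPKM in WT. All HO values were below all WT values, and the log2 change of -0.44 ± 0.13 did not pass (limma adjusted p = 0.123). Since ATF4 is controlled mainly at translation, its mRNA level does not measure its protein.

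Ddit3, which encodes the factor CHOP of prolonged stress (chromosome 10, 127290774 to 127296288, plus strand), was at 8.20, 8.67 and 5.81 FPKM in HO and at 11.8, 14.4 and 9.79 FPKM in WT. The groups did not overlap, the ratio of means was 0.629, and the log2 change was -0.64 ± 0.19 (limma adjusted p = 0.125). Ddit3 overlaps a further Ddit3 gene model on its own strand and Mars on the opposite strand, at a mean of 28.2 FPKM, so its value is uncertain. Atf5, a factor of the same family that is abundant in liver (chromosome 7, 44812256 to 44816658, minus strand), was at 150.5, 224 and 153 FPKM in HO and at 305, 297 and 203 FPKM in WT. HO replicate 2 was above WT replicate 3, and the log2 change was -0.61 ± 0.21 (limma adjusted p = 0.165). Atf3, an early stress factor, lay near the filter at 0.491 to 0.716 FPKM in HO and 0.513 to 1.08 FPKM in WT, or 23 to 38 read equivalents in HO and 26 to 44 in WT. Atf5 overlaps Nup62 on the opposite strand, at a mean of 6.58 FPKM. These 4 genes kept their negative sign under every alternative in which they were fitted.

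The targets of the branch were split. Chac1, which encodes a glutathione-degrading enzyme and is a target of ATF4 and CHOP (chromosome 2, 119351229 to 119354381, plus strand), was at 3.86, 3.25 and 4.41 FPKM in HO and at 1.73, 1.86 and 2.20 FPKM in WT. The groups did not overlap, each HO value being above the highest WT value, and the libraries held 126 to 163 read equivalents of it in HO and 54 to 79 in WT. The ratio of means was 1.99 and the log2 change 0.83 ± 0.15, and it missed the threshold narrowly (limma adjusted p = 0.0526). Over the 16 alternatives the change ran from 0.72 to 0.95 and the limma adjusted p from 0.0274 to 0.187.

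Asns, encoding asparagine synthetase, a target of ATF4 in amino acid shortage (chromosome 6, 7675169 to 7693254, minus strand), was at 2.19, 1.97 and 0.608 FPKM in HO and at 0.102, 0.736 and 0.780 FPKM in WT. HO replicate 3 was below 2 of the WT libraries. These levels stand for 38 to 133 read equivalents in HO and 5 to 47 in WT, so the log2 change of 0.98 ± 0.42 (limma adjusted p = 0.239) is imprecise. Trib3, a pseudokinase that holds back the branch, was at 3.50, 3.55 and 1.73 FPKM in HO and at 3.61, 2.70 and 2.65 FPKM in WT, and its groups overlapped. Its log2 change of -0.06 ± 0.25 turned to 0.03 with median-of-ratios scaling. Ppp1r15a, whose product GADD34 directs the dephosphorylation of eIF2, was at 3.64 ± 0.748 FPKM in HO and 4.07 ± 0.618 FPKM in WT (SD, n = 3), a log2 change of -0.15 ± 0.17. It overlaps Tulp2 on the opposite strand, at a mean of 5.18 FPKM, so its value is uncertain.

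**Figure D3:**
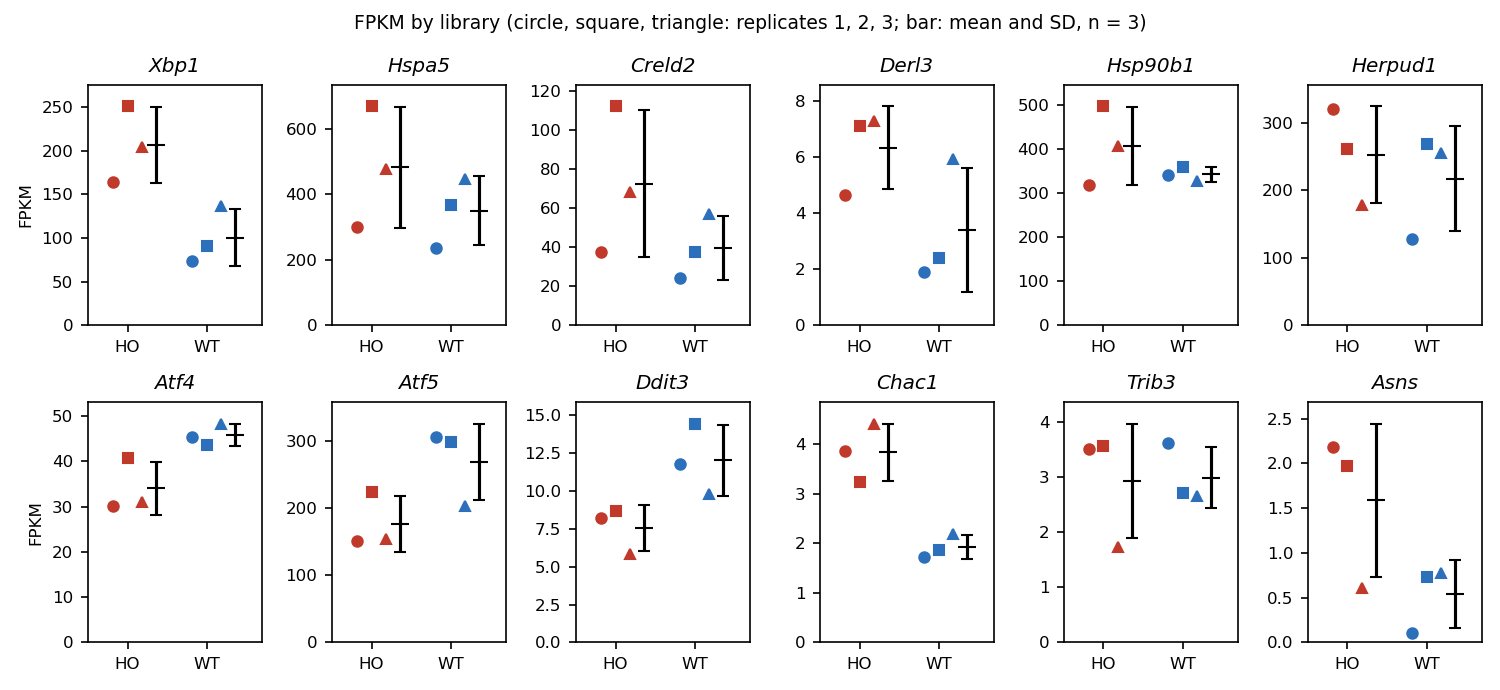
FPKM of 12 genes in each library, HO on the left of each panel and WT on the right, on linear axes that start at 0. Symbols are replicates 1 (circle), 2 (square) and 3 (triangle), and bars are the mean and SD of 3 libraries; Xbp1 and Chac1 lay above, and Atf4 and Ddit3 below, the WT values in all 3 HO libraries.

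Set side by side, the 24 ER genes had a median log2 change of 0.22 with 21 positive, and the 8 genes of the ATF4 branch a median of -0.22 with 2 positive. Of all genes tested 35.4% were positive, with a median of -0.09. By these 2 measures only, the ATF4 branch lay closer to the background than the ER genes did. Its median joins changes of opposite sign, from -0.64 (Ddit3) to 0.98 (Asns). At an unadjusted p under 0.05, 1 of its 8 genes was higher and 3 were lower. Of the 24 ER genes 3 were higher and 0 lower, against 5.01% and 16.5% of all genes. The medians are descriptions, since genes of a list are not replicates, and the difference between the 2 groups of genes was not tested. Leaving out HO replicate 1 gave medians of 0.29 for the ER genes and -0.23 for the ATF4 branch. Leaving out HO replicate 2 gave 0.11 and -0.34, HO replicate 3 gave 0.21 and -0.16, and WT replicate 1 gave 0.17 and -0.16. Leaving out WT replicate 2 gave 0.24 and -0.36, and leaving out WT replicate 3 gave 0.27 and -0.18. Median-of-ratios scaling gave 0.33 and -0.14. In each library the mean of the ER genes minus the mean of the ATF4 branch, both centred on the 6 libraries, was -0.14, 0.20 and 0.40 on the log2 scale in HO and -0.33, -0.18 and 0.04 in WT. HO replicate 1 lay between the WT libraries in this contrast, so the groups overlapped. The median within-group SD was 0.23 for the ER genes and 0.27 for the ATF4 branch, against 0.18 for all genes tested.

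**Figure D4:**
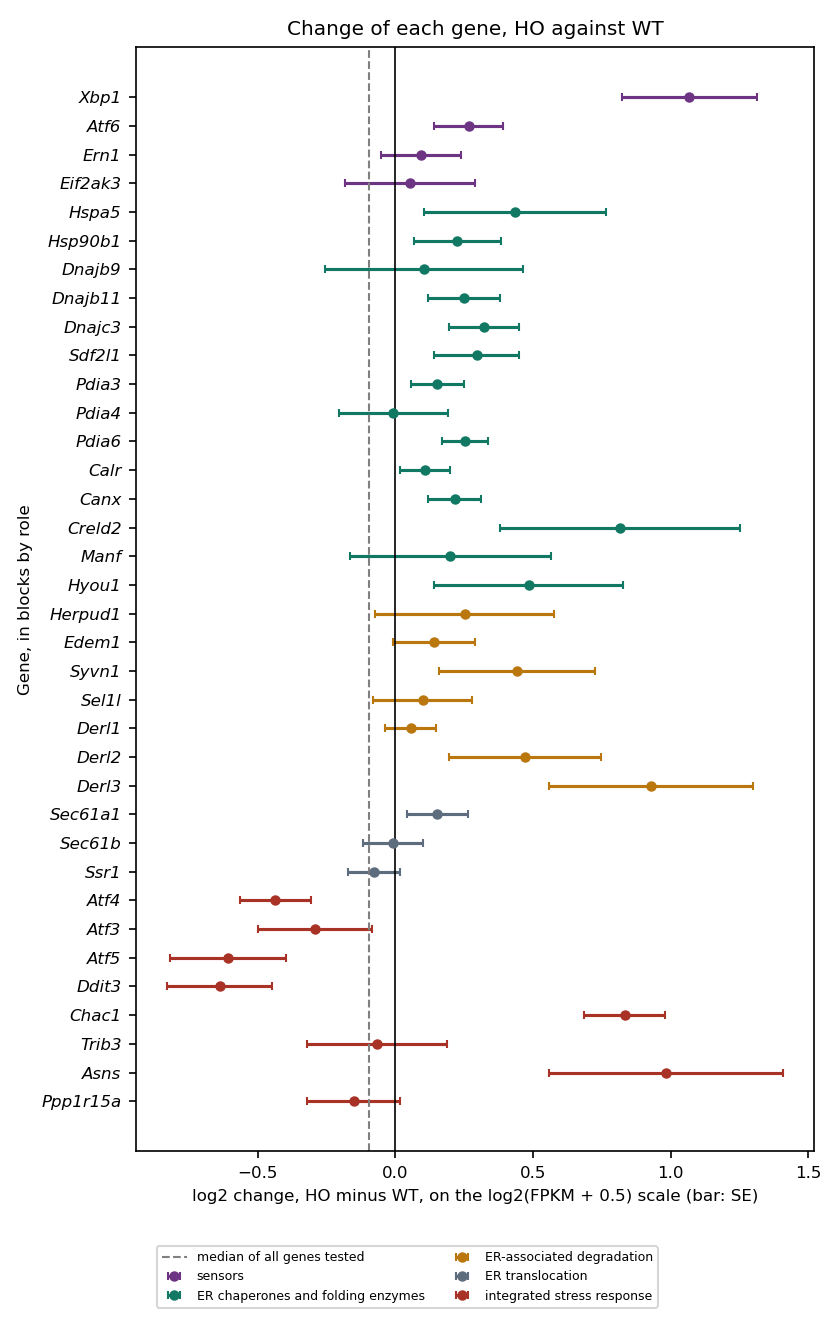
Log2 change from WT to HO of each of the 36 genes on the log2(FPKM + 0.5) scale, with bars of 1 SE and colours by role. The solid line marks 0 and the dashed line the median of all 13250 genes tested, -0.09; 21 of the 24 ER genes lie right of 0, and 6 of the 8 genes of the ATF4 branch left of it.

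Further genes of the same pathways had no member past the adjusted threshold in any of 9 lists. For all these lists, the shares of all genes at an unadjusted p under 0.05 were 5.01% higher and 16.5% lower. Of 26 further ER folding genes tested, 5 were higher and 0 lower at that threshold, with a median log2 change of 0.12. The 2 with the smallest p were Nucb2, a calcium-binding protein, at 1.98, 2.88 and 2.39 FPKM in HO and 1.68, 1.26 and 1.64 FPKM in WT, and the disulphide isomerase Pdia5, at 24.9, 37.0 and 37.2 FPKM in HO and 21.1, 19.4 and 26.9 FPKM in WT. Further degradation genes (22 tested) had 1 higher and 1 lower and a median of 0.04. The 1 higher was Ube2g2, the ubiquitin-conjugating enzyme of this pathway, at 19.98, 24.6 and 20.2 FPKM in HO and 14.1, 14.0 and 17.1 FPKM in WT (log2 change 0.51 ± 0.13, limma adjusted p = 0.0912), and the 1 lower was the deglycosylating enzyme gene Ngly1 (-0.21 ± 0.09). The translocon, signal peptidase and glycosylation list (31 tested) had 1 higher and 3 lower and a median of -0.01, with Sec62 and Ost4 at log2 changes of -0.32 ± 0.10 and -0.25 ± 0.09. Genes of ER exit and Golgi transport (25 tested) had 0 in either direction and a median of -0.05. Sar1b and Sec13, coat proteins of ER exit, had changes of -0.20 ± 0.09 and -0.17 ± 0.08.

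Further ATF4 targets (30 tested) had 1 higher and 5 lower at an unadjusted p under 0.05, near the 5.01% and 16.5% of all genes, and a median of -0.09, close to that of all genes. The 2 with the smallest p encode the stress hormones of this branch. Fgf21 was at 2.95, 5.49 and 3.07 FPKM in HO and at 7.85, 9.63 and 7.58 FPKM in WT, a log2 change of -1.07 ± 0.23 (limma adjusted p = 0.0747), and it passed with array weights and without HO replicate 2 (limma adjusted p = 0.0360 and 0.0389). Gdf15 was at 2.74, 6.12 and 2.26 FPKM in HO and at 12.9, 12.0 and 8.53 FPKM in WT, a log2 change of -1.56 ± 0.33 (limma adjusted p = 0.0747), and it passed under the same settings (limma adjusted p = 0.0360 and 0.0365). For both, all HO values were below all WT values, whereas Chac1 lay the other way. Fgf21 is also a target of PPAR alpha, which is active in fasting.

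The eIF2 kinases and regulators (14 tested) had a median of 0.05, with 1 higher (Dnajc3, described above) and 1 lower. The lower was Eif2ak1, encoding the haem-regulated eIF2 kinase, at 11.7, 11.8 and 11.3 FPKM in HO and 13.2, 13.7 and 13.5 FPKM in WT, and next was Impact, a regulator of the kinase GCN2, at -0.29 ± 0.13. Among membrane-bound transcription factors and partners of IRE1 (14 tested, median -0.04, 2 higher and 2 lower), Map3k5, the kinase ASK1 that can be activated from IRE1, was at 17.0, 13.5 and 14.3 FPKM in HO and 5.59, 9.90 and 8.87 FPKM in WT. Its log2 change was 0.87 ± 0.21 (limma adjusted p = 0.0870). Tmbim6, an ER membrane protein known to restrain IRE1, was at 521, 459 and 547 FPKM in HO and at 669, 667 and 588 FPKM in WT, a log2 change of -0.33 ± 0.10 (limma adjusted p = 0.133).

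Active IRE1 also degrades some ER-bound mRNAs. Of 7 such mRNAs tested, 6 had negative changes, against 64.6% of all genes, and 2 were lower at an unadjusted p under 0.05, against 16.5%. The median was -0.21. With so few genes these counts are no result about the list. Bloc1s1, a much used reporter of this decay, was at 76.6, 69.4 and 73.5 FPKM in HO and at 97.1, 91.7 and 88.5 FPKM in WT, a log2 change of -0.33 ± 0.08 (limma adjusted p = 0.0895). Sparc was at 19.8, 17.9 and 16.6 FPKM in HO and at 27.3, 24.5 and 23.8 FPKM in WT, a log2 change of -0.47 ± 0.10 (limma adjusted p = 0.0765). Neither overlapped between the groups. Sparc and Pdgfrb of this list are also expressed by stellate cells, whose marker sum was 61.4 to 77.5 FPKM in HO and 89.8 to 116 FPKM in WT, and in bulk liver fewer cells of a type and less RNA per cell cannot be told apart. The mitochondrial unfolded protein response (9 tested) had 2 higher and 1 lower and a median of 0.05. Dnaja3, a mitochondrial cochaperone, was at 0.32 ± 0.09 on the log2 scale of change, and the protease gene Htra2 at -0.44 ± 0.10.

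Within each group the same libraries were high or low across most ER genes. HO replicate 2 had the highest HO value for 19 of the 24 ER genes and HO replicate 1 the lowest for 19, and WT replicate 3 had the highest WT value for 19 and WT replicate 1 the lowest for 18. Of the 8 genes of the ATF4 branch these counts were 6, 3, 4 and 2, and of the 4 sensors and signal carriers 3, 4, 3 and 3. The matching shares of all genes are not given here, so these orders may not be particular to the ER genes. Acute phase genes, which the liver makes in inflammation, had in their mean the HO order of the ER genes but not the WT order. Their mean centred level was -0.60, 1.77 and 1.48 on the log2 scale in HO and -0.74, -1.14 and -0.77 in WT, and HO replicate 1 was below the other HO libraries for 17 of 18 genes. All 18 had positive log2 changes, and Socs3, which shuts off JAK-STAT signalling, passed (24.3, 11.4 and 18.4 FPKM in HO, 2.43, 1.97 and 3.68 FPKM in WT, log2 change 2.51 ± 0.30, limma adjusted p = 0.0261). Socs3 was the exception to that count, with HO replicate 1 highest and HO replicate 2 lowest in HO. Serpina3n, a secreted protease inhibitor, had 283, 860.4 and 823 FPKM in HO and 192, 149.97 and 195 FPKM in WT, a log2 change of 1.72 ± 0.41 (limma adjusted p = 0.0868), and it passed without HO replicate 1 (limma adjusted p = 0.00773). The mean of the clock genes had the WT order of the ER genes, though not every clock gene did. WT replicate 3 was outside the range of the other WT libraries for 12 of 13 genes. It was the highest WT library for 10 and the lowest for 2 (Arntl and Clock). Their mean centred level was 0.13, 0.08 and 0.09 in HO and -0.41, -0.28 and 0.38 in WT. The clock output gene Ciart, chosen after its values were seen, was at 7.24, 7.60 and 10.7 FPKM in HO and at 0.916, 2.71 and 12.96 FPKM in WT. The smallest p of the clock list belonged to Per1, at 5.39, 6.16 and 5.03 FPKM in HO and 7.30, 8.10 and 10.4 FPKM in WT, and to Per2, at 7.81, 7.78 and 8.21 FPKM in HO and 3.31, 4.38 and 9.25 FPKM in WT. Per2 passed without WT replicate 3 (log2 change 0.97, limma adjusted p = 0.0368). The part of the acute phase and clock genes in the ER pattern was not tested.

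**Figure D5:**
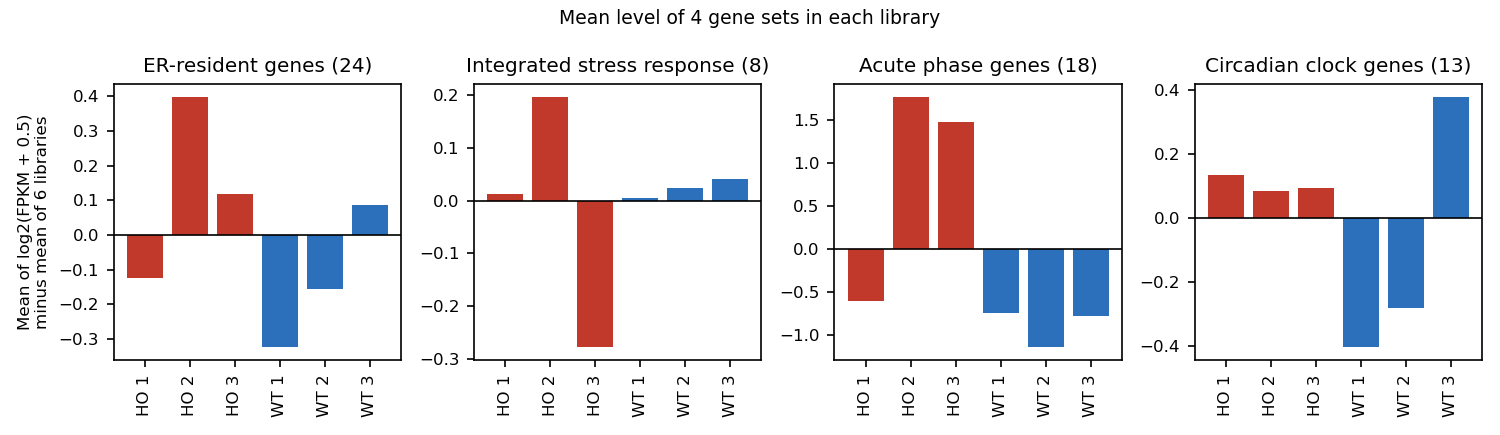
Mean level of 4 sets of genes in each library, as the mean over genes of log2(FPKM + 0.5) minus each gene's mean of the 6 libraries, with 3 HO bars left of 3 WT bars. Scales differ between panels; HO replicate 2 is highest for ER genes (0.40) and acute phase genes (1.77), and WT replicate 3 is the highest WT library for ER genes (0.09) and the highest of all for clock genes (0.38).

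Feeding and fasting genes (13 tested) had 0 higher and 5 lower at an unadjusted p under 0.05, against 5.01% and 16.5% of all genes. Their median was -0.38, with their mean centred level at -0.24 to -0.08 in HO and 0.05 to 0.32 in WT. Fasn and Cyp4a14, of fat synthesis and of fatty acid oxidation, had the smallest p, with log2 changes of -0.98 ± 0.17 and -1.33 ± 0.25. Immediate early genes (13 tested) had 3 higher and 4 lower. Their changes were 7 positive and 6 negative, with a median of 0.18, against 35.4% positive among all genes tested. Zfp36 and Jun, with the smallest p, were at log2 changes of -1.10 ± 0.19 and -1.09 ± 0.23, and their limma adjusted p values were 0.0509 and 0.0727. The 3 higher genes were Btg2 (0.94 ± 0.24), Junb (0.80 ± 0.23) and Fosl2 (0.41 ± 0.12). The mean centred level of this list was 0.50, -0.18 and -0.25 in HO and 0.06, -0.16 and 0.03 in WT, with HO replicate 1 highest. The part of feeding state and of tissue handling in the values of Fgf21, Gdf15, Atf4 and Ddit3 was not tested.

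Other secretory cells could bring ER transcripts of their own. Plasma cell and B cell markers summed to 63.2 to 69.8 FPKM in HO and 66.8 to 85.3 FPKM in WT over 14 genes in the table, of which 6 were tested, 2 with positive and 4 with negative changes. Sdc1, which hepatocytes also express, made up most of that sum, at 43.7 to 52.0 FPKM in HO and 46.5 to 61.3 FPKM in WT. Of 5 pancreatic acinar markers in the table, 3 (Pnliprp1, Ctrb1 and Zg16) were at 0 in all 6 libraries. Cela1, at 42.1, 21.7 and 25.2 FPKM in HO and 23.2, 17.999 and 21.7 FPKM in WT, made up nearly all of the sum of 22.3 to 42.8 FPKM in HO and 18.4 to 23.4 FPKM in WT. Neutrophil markers summed to 3.42 to 8.47 FPKM in HO and 1.95 to 5.04 FPKM in WT over 10 genes, with Ly6g and Camp at 0. Of the 10 genes 3 were tested, 2 with positive changes and 1 with a negative one. S100a9 was at 2.45 to 3.75 FPKM in HO and 0.491 to 1.75 FPKM in WT. The other tested genes overlapped between the groups, with S100a8 at 0 to 3.11 FPKM in HO and 0.691 to 1.76 FPKM in WT. Csf3r was at 0.535 to 0.597 FPKM in HO and 0.591 to 0.683 FPKM in WT. T and NK cell markers summed to 1.65 to 2.39 FPKM in HO and 1.36 to 2.41 FPKM in WT over 9 genes. All 12 Kupffer cell and macrophage markers had negative changes (median -0.30), with sums of 147 to 191 FPKM in HO and 162 to 291 FPKM in WT. Endothelial markers summed to 45.5 to 49.6 FPKM in HO and 48.0 to 59.4 FPKM in WT over 8 genes, and cholangiocyte markers to 33.2 to 42.1 FPKM in HO and 26.1 to 32.2 FPKM in WT over 8 genes. That difference lay in Tff3, which passed as higher in HO (limma adjusted p = 0.0454, and past the threshold in 9 of 16 alternatives). Without Tff3 the other 7 cholangiocyte markers summed to 20.5 to 23.1 FPKM in HO and 24.8 to 28.0 FPKM in WT. Of 5 cholangiocyte markers tested 3 had negative changes, and Spp1 was at -0.25 ± 0.10 without overlap between the groups. Of the stellate cell list 8 of 9 genes had negative changes. The part of these cells in the values of the stress genes was not tested.

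Read against the sequences, the 11 ER genes with an ERSE or ERSE-II all had positive log2 changes, from 0.11 (Calr) to 0.93 (Derl3), with a median of 0.25. The 9 ER genes with a window and neither motif had 6 positive and 3 negative changes and a median of 0.10. The 14 other genes tested whose windows held either motif had 6 positive and 8 negative changes and a median of -0.04. In the ATF4 branch, Chac1 and Asns among the 4 genes with a CARE had positive changes and Atf3 and Trib3 negative ones. The 4 without it (Atf4, Atf5, Ddit3 and Ppp1r15a) were all negative, with a median of -0.52. Of 259 other genes tested with a CARE, 99 had positive and 160 negative changes, with a median of -0.09. Of all 9402 genes tested with a window, 3273 had positive and 6129 negative changes, also with a median of -0.09. The other genes with a CARE thus lay near this background, and negative changes were the more frequent ones with or without a motif. These are descriptions of small groups of genes, and no test was made between genes with and without a motif.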

How the data were processed

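Liver RNA was extracted with Trizol and made into directional Illumina libraries, per the labels' protocols. The authors deposited 1 FPKM value per gene and library. HISAT2, HTSeq, DESeq2, StringTie and the build mm10 appear in the submitters' processing notes, without versions or roles, and which tool made the FPKM values and whether strand was used are not given in the sources used here. FPKM is not a count: 32.2% to 35.8% of low values were whole multiples of the step of 1 read (tolerance 0.02 reads), too few to recover reads. FPKM is also relative to the other genes of a library.

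Columns were matched to samples by group and replicate number, and all 24034 identifiers were found in GENCODE mouse release 21, the source of positions. The 13250 genes whose mean reached 0.5 FPKM were fitted as log2(FPKM + 0.5) with limma 3.58.1 in R 4.3.3 (2 groups, no block, eBayes with trend, two-sided, Benjamini-Hochberg over all genes tested, threshold 0.05). The scale understates changes of low genes. The fit was tested on simulated data. Promoter windows are RefSeq's. Tables and figures used Python 3.11.15, numpy 2.4.6, pandas 2.3.3 and matplotlib 3.10.9, and array weights statmod 1.5.0. Libraries holding identical values were not found.

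The 36 genes and all lists were chosen with earlier results of these data known, so no list is independent evidence. Values by library are given for genes of the 36 at an unadjusted p under 0.05 and for 12 set by name, and for further ones picked after their values were seen. Of each other pathway list the 2 genes with the smallest p are named. The 16 alternatives were other pseudocounts, filters, scalings and limma settings, a block for replicate number, and omission of single libraries.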

Additional observations from a re-analysis of the deposited data

How the results depend on the processing

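Under median-of-ratios scaling 1 gene of the 36 passed (Chac1), under quantile normalization 1 (Chac1) and under array weights 2 (Chac1 and Xbp1), against 0 as reported, and leaving out single libraries gave 0 to 2. At an unadjusted p under 0.05, 12, 11 and 12 genes were higher in HO under these 3 settings, against 5, and 2 to 14 when a library was left out. The matching shares of all genes are not given here, so these counts are no result about the 36 genes. The ER median ran from 0.11 to 0.33 and that of the ATF4 branch from -0.36 to -0.11 over the 16 alternatives. A sign that turned belonged to 10 genes, and 26 kept theirs. Pdia4 was at 0.11, 0.091 and 0.061 under the same 3 settings, Sec61b at 0.11 and 0.088 and Trib3 at 0.032 and 0.027 under the scaling settings, and Ssr1 at 0.033 under median-of-ratios scaling. When single libraries were left out, the changes ran from -0.038 to 0.20 for Ern1, -0.12 to 0.31 for Eif2ak3, -0.18 to 0.49 for Dnajb9, -0.21 to 0.21 for Pdia4, -0.15 to 0.65 for Manf, -0.091 to 0.49 for Herpud1, -0.014 to 0.25 for Sel1l, -0.10 to 0.089 for Sec61b and -0.22 to 0.22 for Trib3. The cause was not tested. HO and WT share replicate numbers, but same-numbered libraries did not deviate together (correlations across genes of 0.07, -0.03 and 0.01, and no HO library correlated best with its own number), so the numbers were not taken as pairs. With the replicate number as a block, 0 of the 36 genes passed and 8 were higher at an unadjusted p under 0.05, and 10 genes of the whole table passed as higher and 15 as lower in HO, against 43 and 108. Without a trend in eBayes those counts were 18 and 59, with no filter 7 and 33, with a pseudocount of 0.1 they were 23 and 77, under median-of-ratios scaling 70 and 64, under quantile normalization 56 and 72, and with array weights 249 and 692. Socs3 did not pass with no filter (limma adjusted p = 0.0513) nor without HO replicate 3, WT replicate 1 or WT replicate 2. Depth limits Asns and Atf3, at 5 to 133 read equivalents, more than the other genes.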
